A study of Mus musculus with 6 samples.

Results

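The expression of 10 genes of the Hippo pathway and its transcriptional output was examined in 410.4 cells exposed to neutrophil extracellular traps (NETs). The genes were taken by symbol from the deposited count table, and all 10 of 10 were found among its 55809 gene symbols. They are the junctional regulators Amotl1, Amotl2 and Ajuba, the kinases Lats1 and Lats2, the coactivators Yap1 and Wwtr1, the DNA-binding factor Tead1, and the target genes Ankrd1 and Axl. The CCN genes, which are also YAP targets, are not among them. The 410.4 line is a mouse mammary carcinoma line, and no allele, transgene or sorted population is named for it. Libraries of messenger RNA were sequenced from 3 control samples, kept for 2 days in DMEM with 0.5% serum, and from 3 NETs samples, kept for the same 2 days in 0.5% serum DMEM into which NETs had been collected. NETs are extracellular meshes of neutrophil chromatin and granule proteins. Both groups come from the same line, so other lines and primary tumour cells are not covered, and an effect of NETs cannot be told apart from that of any other difference between the media. The labels do not say that the 3 samples of a group were separate cultures, so the tests measure the spread between these samples, which may be technical.

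The Hippo pathway restrains the transcriptional coactivators YAP (Yap1) and TAZ (Wwtr1). The kinases LATS1 and LATS2, activated by the MST kinases with the adaptors SAV1 and MOB1, phosphorylate YAP and TAZ and keep them in the cytoplasm, while unphosphorylated YAP and TAZ enter the nucleus and drive transcription through the TEAD DNA-binding proteins. Angiomotins bind YAP at cell junctions and along actin and hold it there, and the LIM protein AJUBA binds LATS kinases and limits their activity. In mammary epithelium the pathway is known for its response to cell density, matrix stiffness and cell shape. Much of this control acts on phosphorylation and localisation of the proteins, neither of which was measured here.

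The libraries held 31119105 to 64431811 counts. Values are given as CPM, the usual scaling of counts to a common library size, with TMM factors, and 13956 genes passed the filter on low counts. All 8 epithelial markers had counts, with a summed level of 3596 to 3848 CPM in control and 3945 to 4168 CPM with NETs, but they did not move as a block: Krt14 (6.33 to 102 CPM), Cldn4 (378 to 789 CPM) and Krt8 rose, Krt18 and Cdh1 fell, and 3 did not pass the test. Of 12 neutrophil markers 5 had no count in any library, among them the granule gene Elane, and 11 stayed under 1 CPM in every library; their summed level was 1.76 to 2.28 CPM in control and 2.98 to 3.37 CPM with NETs, mostly S100a8. A count of 0 allowed a level of up to 0.0902 to 0.199 CPM, depending on the library (3 fragments, taken as 6 counts; counting error only). Of 7 fibroblast markers 5 were under 1 CPM in every library, while Pdgfra stood at 45.4 ± 3.37 and 49.2 ± 2.13 CPM (mean ± SD, n = 3 each) and Col1a1 went from 1.18 ± 0.129 to 13.4 ± 2.48 CPM. Of 4 endothelial markers 3 were under 1 CPM in every library, and Cdh5 went from 13.0 ± 0.950 to 15.8 ± 1.49 CPM. The part of any such cells in the results was not tested.

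The core recognition sequence of TEAD proteins, GGAATG or its complement CATTCC, was present upstream of members that rose as well as of members that fell. RefSeq promoter sequences (GRCm38.p6) matched 9 of the 10 genes; Tead1 had no entry. In the 250 bases before the transcription start, on either strand, the motif was found for 6 of these 9 genes. These were Amotl2, Ajuba, Yap1, Wwtr1, Ankrd1 and Axl. It was also found in 12.6% of all 32851 promoters of the same length. Members were counted as genes, with a match in any promoter, while shares of all promoters, here and below, count each entry. Wwtr1 and Lats2 had 2 entries each. Several members are known for being YAP and TEAD targets, so the 6 of 9 is a description of the chosen genes. The windows of 30 bases around each match are shown because they let the genes that rose be compared with those that fell; they are written on the strand of the gene, with the motif in capitals.
Ajuba, 186 bases before the start, chr14:54577830-54577859, minus strand: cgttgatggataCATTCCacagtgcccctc
Ajuba, 164 bases before the start, chr14:54577808-54577837, minus strand: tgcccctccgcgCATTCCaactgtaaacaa
Amotl2, 65 bases before the start, chr9:102717727-102717756, plus strand: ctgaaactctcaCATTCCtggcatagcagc
Wwtr1, 136 bases before the start, chr3:57576029-57576058, minus strand: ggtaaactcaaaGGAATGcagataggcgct
Yap1, 141 bases before the start, chr9:8004720-8004749, minus strand: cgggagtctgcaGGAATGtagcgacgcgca
Ankrd1, 210 bases before the start, chr19:36120037-36120066, minus strand: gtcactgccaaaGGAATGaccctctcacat
Ankrd1, 123 bases before the start, chr19:36119950-36119979, minus strand: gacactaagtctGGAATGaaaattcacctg
Axl, 233 bases before the start, chr7:25788949-25788978, minus strand: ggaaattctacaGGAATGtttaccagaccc
Ajuba and Ankrd1 each held the motif at 2 places, and 0.992% of all promoters held it at 2 or more places. In Ajuba and Amotl2, both higher with NETs, the letters read CATTCC on the strand of the gene. In Ankrd1 and Axl, both lower with NETs, they read GGAATG. They also read GGAATG in Wwtr1, which was higher with NETs, and in Yap1, which did not pass the test. Amotl1, also higher, had no match. The reading thus did not divide the genes by the direction of their change. The upstream sequence of Ajuba, the member with the largest change, is given whole (chr14:54577662-54577911, minus strand, both matches in capitals), since it is the promoter with the closest pair of matches.
Ajuba upstream: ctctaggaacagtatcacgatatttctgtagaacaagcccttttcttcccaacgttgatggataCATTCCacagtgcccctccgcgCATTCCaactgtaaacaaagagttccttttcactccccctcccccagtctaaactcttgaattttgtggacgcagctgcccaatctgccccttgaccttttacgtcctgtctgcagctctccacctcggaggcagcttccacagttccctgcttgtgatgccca
The AP-1 motif TGANTCA was found in 0 of the 9 genes and in 6.75% of all promoters, and CAGAC, the letters of a SMAD-binding element, on either strand in 5 of the 9 and in 42.2% of all promoters. In Ankrd1 a CAGAC match shares a base with the second GGAATG. A match of letters is not evidence of binding, and no binding was measured.

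With NET-conditioned medium 4 of the 10 genes rose (Ajuba, Amotl2, Amotl1 and Wwtr1) and 2 fell (Axl and Ankrd1), while Yap1, Lats1, Lats2 and Tead1 did not pass the test. The changes ran from 1.76-fold higher for Ajuba to 1.40-fold lower for Axl. Of all 13956 genes tested, 38.9% passed the same test (the quasi-likelihood test of edgeR, adjusted over all genes by Benjamini-Hochberg and called at 0.05), 20.2% being higher and 18.7% lower. Being called was thus common in this comparison, and the 6 of 10 are to be read against that share. That share also covers genes of lower level, where small changes are harder to call. In control, Lats2 stood above 47.1% of all genes tested, and the other members above 81.3% (Ajuba) to 99.4% (Axl). No share was taken over genes of like level, for the members or for the pathway lists below. The median log2 fold change of the members was 0.091, and -0.0039 over all genes tested; the median size of the change, without its sign, was 0.22 and 0.19. For 6 of the 10 members, and for 49.0% of all genes tested, each NETs library lay on the same side of every control library. In bulk RNA a lower share of expressing cells and less RNA per cell cannot be told apart.

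**Figure D1:**
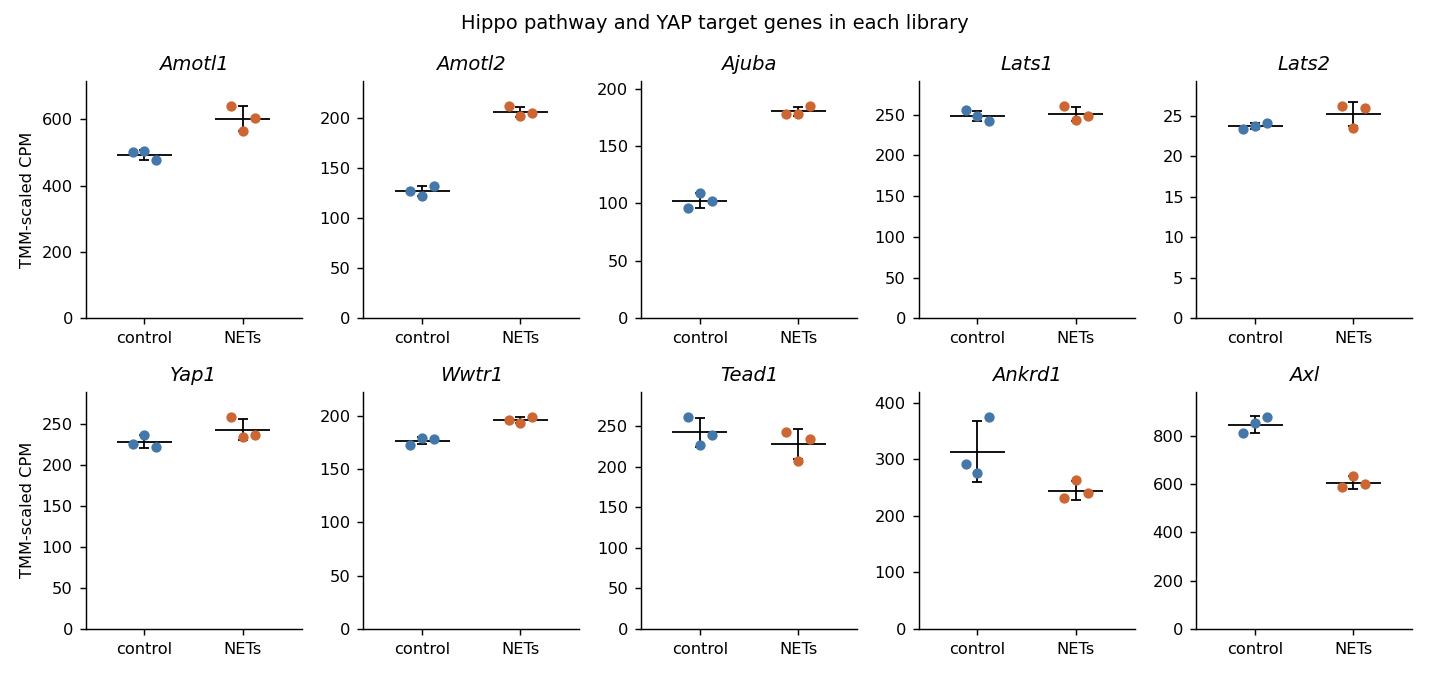
TMM-scaled CPM of the 10 genes in each of the 3 control and 3 NETs libraries (points), with the mean (line) and SD (bar); every vertical axis starts at 0. Ajuba, Amotl2, Amotl1 and Wwtr1 lie higher in all NETs libraries, Axl and Ankrd1 lie lower, and the groups overlap for Lats1, Lats2, Yap1 and Tead1.

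Among the junctional regulators, Ajuba changed most. Its product is a LIM scaffold that moves between cell junctions and the nucleus and can hold LATS kinases inactive. Ajuba was measured at 95.7, 109 and 102 CPM in control replicates 1 to 3 and at 178, 178 and 184 CPM in NETs replicates 1 to 3. All NETs libraries lay above all control libraries, and the gap between the groups was wide against the spread within them. The gene rose 1.76-fold, a log2 fold change of 0.82 with a standard error of 0.053 (adjusted p = 2.09e-09 in edgeR). The size of this change was above that of 90.5% of all genes tested. Its relatives Limd1 and Wtip, which encode LIM proteins of the same family, gave no such rise: Limd1 had a log2 fold change of 0.019 with a confidence interval from -0.11 to 0.15 (adjusted p = 0.844 in edgeR), and Wtip had no count in any library. Per kilobase of exon, the share of Ajuba in the summed level of the 3 genes thus went from 60.9% ± 1.27 to 73.0% ± 1.17 (SD, n = 3 each).

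Amotl2 encodes an angiomotin that binds YAP, and is itself a well-known YAP target. Its level was 128, 123 and 132 CPM in the control libraries and 212, 202 and 206 CPM in the NETs libraries. The groups stood clear of each other, and the rise was 1.62-fold (log2 fold change 0.70, standard error 0.048, adjusted p = 4.60e-09 in edgeR). Amotl1, a close relative with the same YAP-binding role, was already abundant in control medium, at 500.7, 504 and 476 CPM. With NETs it reached 639, 564 and 604 CPM, again without overlap, but with a rise of 1.22-fold (log2 fold change 0.29, standard error 0.053, adjusted p = 0.000345 in edgeR). The third angiomotin, Amot, is no member of the set and rose more than either, 2.34-fold from 41.4 ± 2.98 to 96.9 ± 3.96 CPM (adjusted p = 5.54e-11 in edgeR).

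Summed per kilobase of exon, the 3 angiomotin genes went from 74.2 ± 0.733 to 104 ± 4.55 CPM per kb (SD, n = 3 each). Amotl1 remained the most abundant of them in each library, but its share of the sum was 66.1% ± 1.63 in control and 57.4% ± 1.11 with NETs. The share of Amotl2 was 27.3% ± 1.14 and 31.5% ± 0.676, and that of Amot 6.65% ± 0.501 and 11.1% ± 0.624. Within libraries the log2 ratio of Amotl2 to Amotl1 counts was -1.97, -2.04 and -1.85 in control and -1.59, -1.48 and -1.56 with NETs. The ratio was higher in each NETs library than in any control library, by 0.41 on the log2 scale (exact permutation test, two-sided, p = 0.1, the smallest possible with 3 against 3, and 0.3 after Benjamini-Hochberg adjustment over 3 gene pairs). Such a ratio does not depend on how the libraries are scaled.

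The LATS kinases showed no detectable change. Lats1, the kinase gene with the higher level, had 255.4, 248 and 243 CPM in control and 260.2, 243 and 248 CPM with NETs, and the groups lay on top of each other. Its log2 fold change was 0.0092, with a 95% confidence interval from -0.091 to 0.11 (adjusted p = 0.903 in edgeR), and its sign depended on the scaling of the libraries, being negative with upper-quartile factors and with library size alone. Lats2, which is both a kinase of the pathway and a target of YAP, was the lowest of the 10 genes, at 23.3, 23.7 and 24.2 CPM in control. With NETs it was measured at 26.2, 23.5 and 26.0 CPM, of which the library of replicate 2 fell within the control range. The interval of its log2 fold change ran from -0.052 to 0.23 (adjusted p = 0.318 in edgeR). Per kilobase, Lats1 made up 90.9% ± 0.352 of the LATS sum in control and 90.5% ± 0.339 with NETs. The log2 ratio of Lats2 to Lats1 differed by 0.077 between the groups (exact permutation test, two-sided, p = 0.2, and 0.3 after adjustment over the 3 pairs).

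Of the coactivators, Wwtr1 rose slightly and Yap1 did not pass the test. Wwtr1, the gene of TAZ, had 173, 179 and 178 CPM in control and 196, 193 and 199 CPM with NETs, without overlap. The rise was 1.11-fold (log2 fold change 0.15, standard error 0.045, adjusted p = 0.0135 in edgeR). This call was lost with library size alone (log2 fold change 0.083), without the low-count filter (0.14), without control replicate 1 (0.14) and without NETs replicate 3 (0.14). Yap1 had 226, 238 and 223 CPM in control and 259, 235 and 237 CPM with NETs. Only NETs replicate 1 lay clear of the control libraries, and the log2 fold change of 0.091 had a confidence interval from -0.017 to 0.20 (adjusted p = 0.179 in edgeR). The log2 ratio of Wwtr1 to Yap1 changed by 0.061, and its values overlapped between the groups (exact permutation test, two-sided, p = 0.3, and 0.3 after adjustment). With a smallest possible p of 0.1, this test could not show at 0.05 a difference between the coactivators. Their summed level was 61.7 ± 1.29 CPM per kb in control and 67.4 ± 1.65 CPM per kb with NETs, with Wwtr1 at 59.9% ± 0.752 and 60.9% ± 1.25 of it.

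Tead1, which encodes a DNA-binding partner of YAP and TAZ, was measured at 261, 227 and 239 CPM in control and 242, 207 and 234 CPM with NETs. The values overlapped, and the confidence interval of the log2 fold change ran from -0.23 to 0.045 around -0.091 (adjusted p = 0.289 in edgeR). The other 3 TEAD genes, which are no members of the set, all changed. Tead2 rose 1.46-fold from 143 ± 5.23 to 208 ± 8.54 CPM (adjusted p = 1.62e-07 in edgeR), and Tead3 rose 1.34-fold to 43.1 ± 1.80 CPM. Tead4 was lower, with a log2 fold change of -0.29 from 50.4 ± 1.505 to 41.3 ± 2.62 CPM (adjusted p = 0.00106 in edgeR). These calls held in all 15 alternative settings. Although Tead1 had the highest mean CPM of the family in both groups, Tead2 stood higher per kilobase of exon in every library. This order rests on the exon lengths listed with the counts, 13570 bases for Tead1 and 4788 for Tead2. The lengths of the transcripts present in the cells were not measured, which limits every comparison between genes per kilobase given here. Tead1 made up 29.1%, 24.9% and 26.7% of the summed TEAD level in the control libraries and 22.8%, 19.7% and 21.9% in the NETs libraries, which do not overlap. Tead2 went from 44.8% ± 1.32 to 55.6% ± 2.69 of the sum, and Tead4 from 21.1% ± 0.510 to 14.7% ± 0.820. The summed level itself was 66.5 ± 0.562 CPM per kb in control and 78.1 ± 0.672 CPM per kb with NETs.

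**Figure D2:**
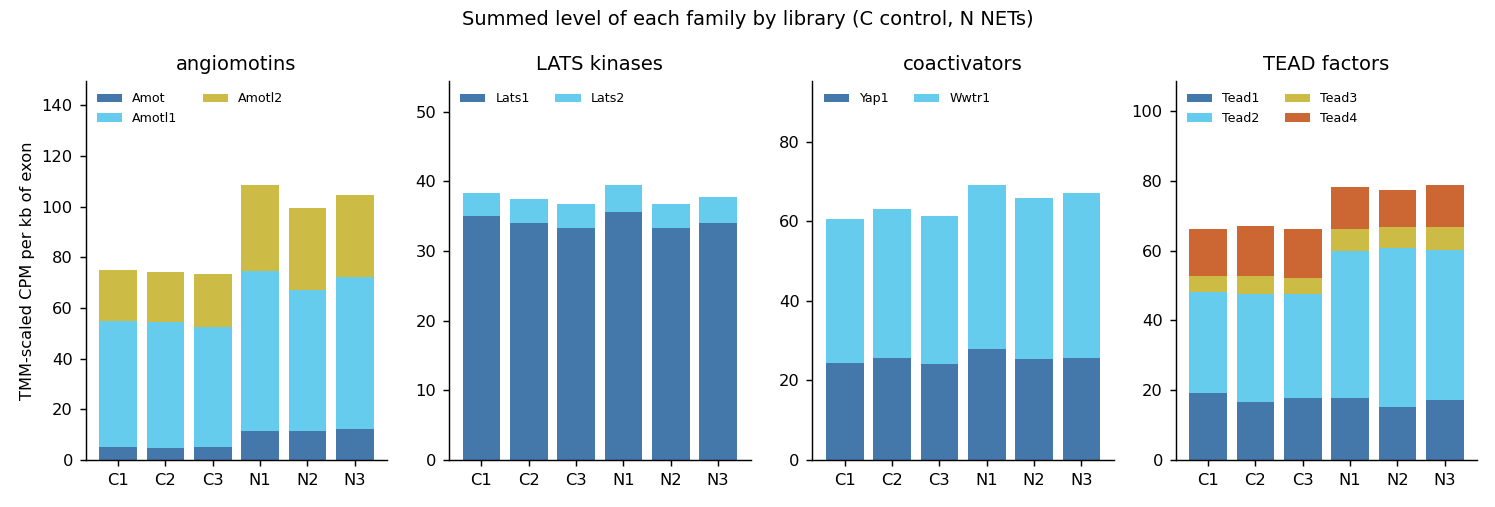
Stacked bars give the TMM-scaled CPM per kilobase of exon of each gene of 4 families in the control libraries (C1 to C3) and the NETs libraries (N1 to N3). The angiomotin and TEAD bars are higher with NETs, with more Amot and Amotl2 and more Tead2 in them, while the LATS bars stand at 37.5 ± 0.8003 and 37.9 ± 1.36 CPM per kb.

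Axl and Ankrd1, taken into the set as target genes alone, were lower with NETs. Of the members that are targets as well as regulators, Amotl2 rose and Lats2 did not pass the test. Axl, a receptor tyrosine kinase gene that YAP and TEAD are known to activate, was the most abundant member, at 809, 850.3 and 877 CPM in control. With NETs its level was 586, 634 and 598 CPM, below each control library. The gene was 1.40-fold lower (log2 fold change -0.48, standard error 0.051, adjusted p = 9.27e-07 in edgeR), and it remained called lower in all 15 alternative settings, with log2 fold changes from -0.55 to -0.45. Ankrd1 encodes a nuclear ankyrin repeat protein and is among the genes most often read as a report of YAP activity. Its values were 291, 275 and 374 CPM in control and 231, 263 and 239.9 CPM with NETs. The highest NETs library lay close under the lowest control library, and control replicate 3 stood apart from the other control libraries. Ankrd1 was 1.28-fold lower (log2 fold change -0.36, standard error 0.11, adjusted p = 0.0342 in edgeR), and -0.21 without control replicate 3 (adjusted p = 0.00638). The call was lost without NETs replicate 1 (-0.32, adjusted p = 0.128) and without NETs replicate 3 (-0.35, adjusted p = 0.0643).

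**Figure D3:**
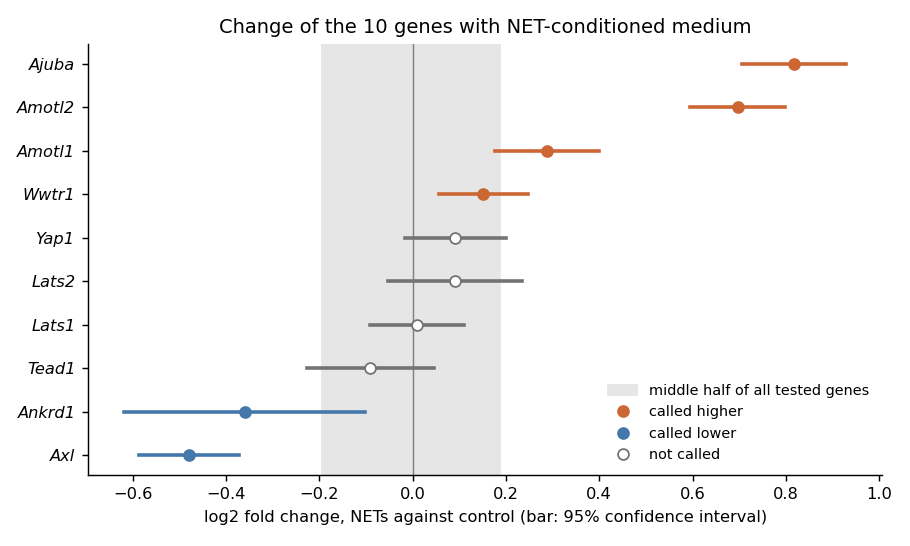
Log2 fold change of each gene, NETs against control (points), with its 95% confidence interval (bars); the grey band spans the quartiles of all tested genes, from -0.19 to 0.19. The intervals of Ajuba and Amotl2 lie above the band and that of Axl below it, while the point of Wwtr1, which passed the test, lies inside it.

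Per kilobase of exon, the control order of levels was Axl (168 ± 6.76 CPM per kb), Ankrd1 (109 ± 18.4), Amotl1 (49.0 ± 1.49), Wwtr1 (37.0 ± 0.676), Lats1 (34.1 ± 0.860), Ajuba (28.1 ± 1.83), Yap1 (24.7 ± 0.849), Amotl2 (20.3 ± 0.756), Tead1 (17.9 ± 1.29) and Lats2 (3.41 ± 0.0599). No neighbours in this order overlapped in control, although the lowest Amotl2 value (19.5) and the highest Tead1 value (19.2) were close. With NETs the first 3 places and the last 2 were the same. Ajuba moved from the sixth to the fourth place, at 49.4 ± 1.01 CPM per kb, above Wwtr1 and Lats1, and Amotl2 passed Yap1 at 32.8 ± 0.802 CPM per kb. Lats1 and Amotl2 were neighbours with NETs, and their libraries overlapped. Axl remained first at 120.4 ± 5.03 CPM per kb in spite of its fall.

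In the wider pathway the share of core genes called, 35.7%, was near the 38.9% of all genes tested. Of 28 core kinases, adaptors and phosphatase-complex (STRIPAK) genes, all tested, 6 rose and 4 fell, with a median log2 fold change of -0.015. Stk38l, a kinase of the same family as the LATS kinases, rose 1.81-fold from 26.2 ± 1.20 to 47.4 ± 0.990 CPM (adjusted p = 5.21e-09 in edgeR), and Wwc2, a relative of the upstream scaffold KIBRA, rose 1.69-fold to 242 ± 5.03 CPM. Mob1b, an adaptor of LATS, rose 1.23-fold, whereas Sav1, the scaffold of the MST kinases, fell by 0.30 on the log2 scale from 156 ± 6.48 to 126 ± 4.84 CPM. The kinases Map4k5 and Taok3, both upstream of LATS, fell by 0.43 and 0.21 on the log2 scale; the call of Taok3 was lost without control replicate 3 or NETs replicate 1 (highest adjusted p = 0.105 in edgeR). The MST kinase genes themselves, Stk3 and Stk4, did not pass the test (log2 fold changes -0.075 and -0.039), nor did the tumour suppressor gene Nf2 (0.044).

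Of 22 junction, polarity and LIM genes 18 were tested, of which 8 rose and 2 fell (55.6% called, against 38.9% of all genes), 3 of the rises being Amotl1, Amotl2 and Ajuba themselves. The polarity gene Crb3, whose product sits at the apical membrane, fell by 0.79 on the log2 scale from 40.3 ± 1.47 to 23.3 ± 1.87 CPM (adjusted p = 8.00e-08 in edgeR). Llgl2, a basolateral polarity gene, fell by 0.16 on the log2 scale, a call that was lost without control replicate 2, NETs replicate 1 or NETs replicate 3 (highest adjusted p = 0.0902 in edgeR). Of the rises on this list, the calls of Dlg5 and Patj held in 8 and 7 of the 15 alternative settings. Among the core rises, those of Map4k2 and Map4k4 held in 7 and 12. With library size alone in place of TMM scaling, 13 in place of 6 of the 46 tested core and junction genes were called lower. Those called higher were then 10 in place of 14, and 10 to 13 with 1 library left out. Of 10 coactivators, TEAD genes and VGLL cofactors 8 were tested, of which 5 rose and 1 fell (75% called, against 38.9% of all genes); without control replicate 1 or with library size alone the rises were 3, as Wwtr1 and Vgll4 were no longer called. Vgll3, whose product competes with YAP and TAZ for TEAD, rose 1.47-fold from 36.1 ± 1.91 to 53.0 ± 2.24 CPM (adjusted p = 1.26e-06 in edgeR).

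The 22 genes of a common YAP target signature included Amotl2, Lats2, Ankrd1 and Axl, and 18 of the 22 were tested. Of these 8 rose and 2 fell (55.6% called, against 38.9% of all genes), with a median log2 fold change of 0.097, and the 2 that fell were Axl and Ankrd1. Without these 4 members, 7 of 14 tested genes rose, 0 fell, and the other 7 did not pass (median log2 fold change 0.12). The largest rises were those of the matricellular gene Ccn2 (12.1-fold), the ecto-nucleotidase gene Nt5e (3.73-fold) and the ligand gene Tgfb2 (2.60-fold, to 2.06 ± 0.245 CPM). Ccn1, Gadd45a and Nuak2, singled out after their values were seen, also rose more than 2-fold, by 2.55-fold, 2.45-fold and 2.08-fold. Ccn2 and Ccn1 are also known as targets of other pathways, TGF-beta among them. Axl and Ankrd1 thus went the other way from the called genes on the rest of the signature. The count of falls depended on the setting: Dock5 (log2 fold change -0.11, not called here) was also called lower with upper-quartile factors, with the replicate block, with library size alone and without NETs replicate 1, and Ptpn14 (-0.12, not called here) in the last 2 of these. The signature genes called lower were then 3 with upper-quartile factors, the replicate block or without NETs replicate 1, 4 with library size alone, and 1 without NETs replicate 3, against 2. Among the rises, the call of Arhgef17 (log2 fold change 0.14) held in 7 of the 15 alternative settings. Other signature genes gave values near no change, such as Crim1 (73.1 ± 2.41 and 74.0 ± 1.70 CPM) and Asap1 (360.1 ± 9.29 and 373 ± 9.39 CPM).

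**Figure D4:**
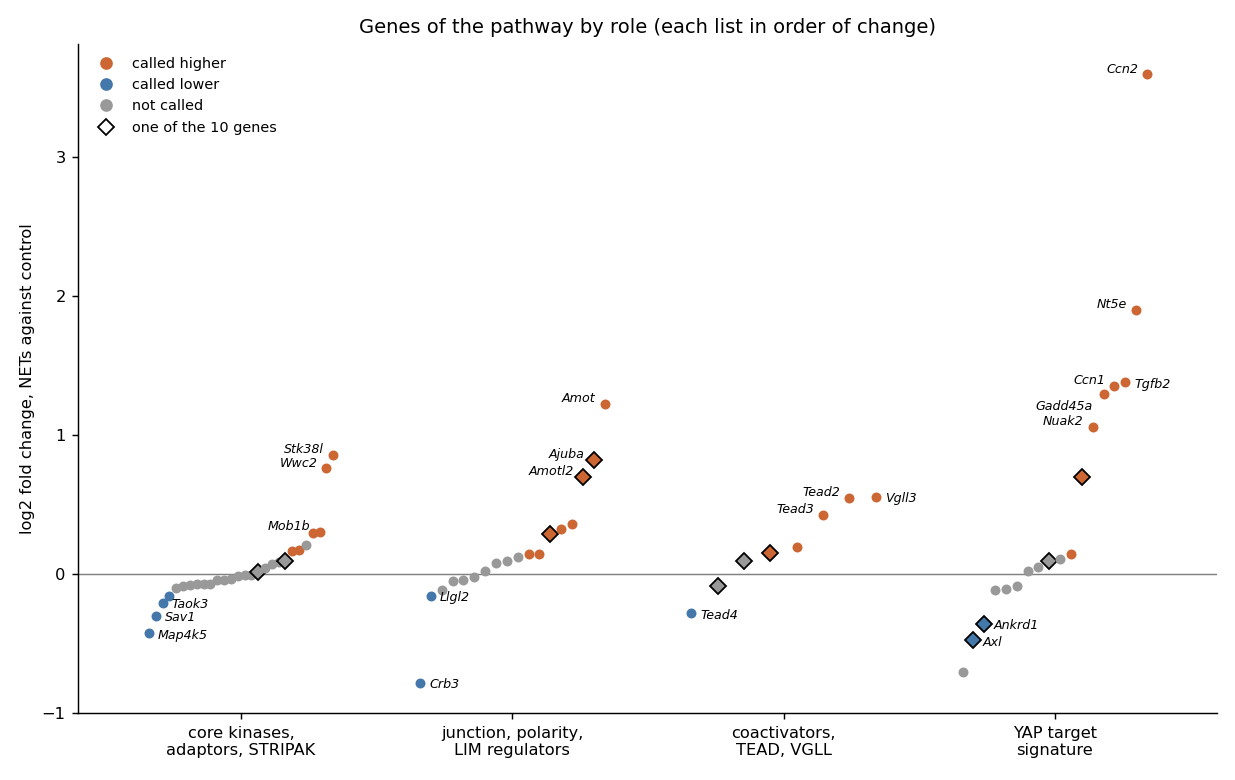
Log2 fold change, NETs against control, of each tested gene on 4 lists of the pathway, ordered within a list; diamonds mark the 10 genes of the set and colours mark the call. Ccn2 stands highest at 3.59, Axl and Ankrd1 are the lowest called genes of the target signature, and Crb3 is the lowest called gene of the junction list at -0.79.

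The calls of Ajuba, Amotl2, Amotl1 and Axl held in each of 15 other settings. With library size alone in place of TMM scaling, the share of rises among all called genes was 35.9% in place of 52.0%, and the median of all genes shifted by -0.068 on the log2 scale. Under that scaling Ajuba stood at 0.75, Amotl2 at 0.63, Amotl1 at 0.22, Ankrd1 at -0.43 and Axl at -0.55.

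**Figure D5:**
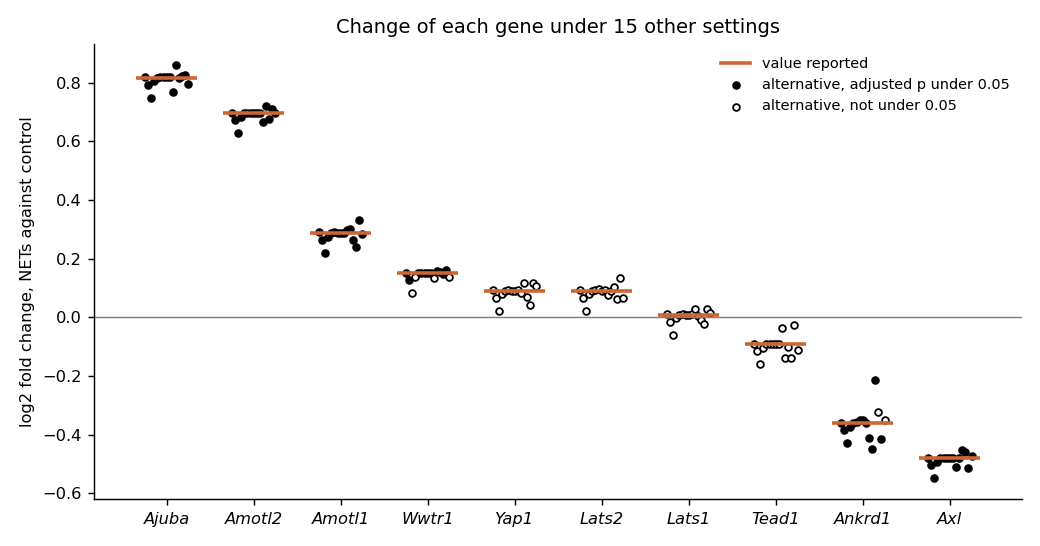
Log2 fold change of each gene under 15 alternative settings (points, filled where the adjusted p was under 0.05) and as reported (orange line). Points of Ajuba, Amotl2, Amotl1 and Axl are all filled, Wwtr1 and Ankrd1 have open points, and Lats1 has points on both sides of 0, from -0.059 to 0.030.

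In the coordinates of the deposited table, counted from 1 and running over exons and introns, Amotl1 spans positions 14453262 to 14556352 of chromosome 9 and Amotl2 102593871 to 102610617 of the same chromosome, which also holds Yap1 (7932000 to 8004597). Ajuba (54804929 to 54815015) and Lats2 (57927119 to 57995845) lie on chromosome 14, and Tead1 (112278525 to 112506014) and Axl (25456698 to 25488130) on chromosome 7. Lats1 lies on chromosome 10 (7556978 to 7592224), Wwtr1 on chromosome 3 (57363070 to 57483331) and Ankrd1 on chromosome 19 (36089361 to 36097499). These spans do not follow the build of the promoter sequences above and must not be joined to them. Exons of Yap1 and Ankrd1 overlap a gene on the other strand, which held 6 and 35 counts over all libraries against 68996 and 83052 counts of the genes themselves. Exons of Lats2 overlap Gm49361 on the same strand, which held 0 counts against 7177 of Lats2. How reads from shared exons were counted was not given in the sources used here. Whether the overlap lowered the level of Lats2, its rank among the members or its share of the LATS sum was not tested.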

How the data were processed

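RNA of 6 samples was compared, 3 control and 3 NETs, grouped by their titles. The authors deposited whole-number counts per gene symbol; STAR 2.7.10a, featureCounts (Subread 2.0.3) and mm10 are named, per the submitters' processing notes. The kit was stranded, per the labels' protocols; the strand setting of the counting was not given in the sources used here. Of 38933 symbols, 11.6% overlapped their GRCm38 position, so its coordinates are not those of mm10. Between 74.8% and 78.4% of counts from 1 to 20 were even, as when both mates are counted.

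Counts were scaled by TMM, filtered by filterByExpr (minimum count 10) and tested with edgeR 4.0.16 (glmQLFit, robust, and glmQLFTest) in R 4.3.3, with Benjamini-Hochberg adjustment over 13956 genes and a call at 0.05. Ratios of gene pairs used a pseudocount of 0.5. Alternatives were other scalings, other filters, DESeq2 1.42.0, limma-voom (limma 3.58.1), a replicate block, halved counts and leaving out each library. The test was tried on simulated data. Within groups r across genes was 0.991 to 0.995, and the chi-square of counts per degree of freedom was 9.59 to 25.1, so no library was a copy of another. Named genes were all members and, from each pathway list, up to 3 called rises and 3 falls whose groups did not overlap and whose mean reached 1 CPM. Outside this rule, with values already known, the text also names some genes (Stk3, Stk4, Nf2, Map4k2, Map4k4, Limd1, Wtip, Dlg5, Patj, Vgll4, Crim1, Asap1, Dock5, Ptpn14, Arhgef17, Ccn1, Gadd45a, Nuak2, Mertk, Gas6, Pros1 and the cell type markers). Members, lists and tests were chosen with earlier results of these data known.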

Additional observations from a re-analysis of the deposited data

How the results depend on the processing

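The 4 rises and 2 falls among the members were found again with RLE and upper-quartile factors, the stricter filter, DESeq2, limma-voom and halved counts; the rises were 3 with library size alone and without the filter. With library size alone the core and upstream genes called lower were 13 against 6, coactivators and partners called higher 3 against 5, and signature genes called lower 4 against 2. Leaving out 1 library gave 1 to 2 members called lower, 3 to 5 coactivators and partners called higher and 1 to 3 signature genes called lower. The sign of Lats1, never called, turned with upper-quartile factors (-0.014), library size alone (-0.059) and no filter (-0.0037), and ranged from -0.021 to 0.030 with 1 library left out, negative without control replicate 3 (-0.0084) and NETs replicate 1. The 3 ratios kept their direction, from 0.37 to 0.46 for Amotl2 to Amotl1, 0.046 to 0.11 for Lats2 to Lats1 and 0.033 to 0.10 for Wwtr1 to Yap1. The TMM factors, which library size alone leaves out, were 1.009 to 1.033 in control and 0.968 to 0.986 with NETs. The cause of these shifts was not tested. Deviations of same-numbered libraries had r of 0.12, -0.059 and 0.056, and those of differently numbered libraries r from -0.17 to 0.11. Values this small cannot decide whether the numbers pair the libraries. With the replicate block 2969 genes rose and 2713 fell, and no member's call changed. With 23.7 CPM in control, Lats2 had the fewest counts of the members, 709 to 1552 per library. A limit by depth was not tested.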

Other observations

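The receptor family of Axl did not move as a block. Tyro3, a receptor tyrosine kinase gene of that family, rose 1.46-fold from 20.8 ± 0.925 to 30.3 ± 0.392 CPM (SD, n = 3 each, adjusted p = 4.14e-06 in edgeR), while Axl fell by 0.48 on the log2 scale. Mertk, the third receptor gene, was near the limit of detection at 0.457 ± 0.194 CPM in control and 0.129 ± 0.0628 CPM with NETs; it passed the test (adjusted p = 0.0085 in edgeR), a call that was lost without control replicate 3 or NETs replicate 3. The genes of the ligands that activate these receptors were at or near 0. Gas6 averaged 0.010 CPM in control and had no count with NETs, and Pros1 had no count in any library, where a count of 0 allows up to 0.0902 to 0.199 CPM (counting error only).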
